A study of Mus musculus with 10 samples.

Results

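The steroid, retinoid and thyroid receptor genes were Esr1, Esr2, Pgr, Nr3c1, Nr3c2, Rara, Rarb, Rxra and Thra, with the related orphan receptor gene Nr2f2. They were chosen by name, and the cytosines inside each gene or within 2000 bp of it were taken in mm10 coordinates. All 10 genes held at least 3 distinct CpGs, out of 21887 protein-coding genes. Together they gave 1711 cytosines on 1233 CpGs, of 1988759 cytosines on 1407384 CpGs in the whole table. The DNA came from testis of F2 mice, with 5 libraries of the arsenic group and 5 of the control group. The labels give each library's treatment as arsenic or control; dose, strain, age and the generation that received arsenic are not in the labels used here. Reduced representation bisulfite sequencing reads methylation at CpG-rich fragments left by a restriction enzyme, so most cytosines of a long gene were not covered.

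Nuclear receptors are transcription factors that bind DNA and, for most of them, a small fat-soluble ligand. Oestrogen, progesterone, glucocorticoid and mineralocorticoid receptors bind DNA mainly as pairs of one kind, whereas retinoic acid and thyroid hormone receptors bind together with a retinoid X receptor such as Rxra. In the testis, retinoic acid starts spermatogonial differentiation and meiosis, oestrogen acts on germ cells, Leydig cells and the ducts, and thyroid hormone limits Sertoli cell proliferation in the young animal. Methylation of CpGs at a gene's start is commonly low where the start lies in a CpG island, and gene bodies are commonly methylated.

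Every cytosine had at least 10 reads in every library. The count of reads per library over the table lay between 87658994 and 100355708 in the arsenic group and between 69771871 and 92434984 in the control group, and median coverage was 35 to 40 reads and 27 to 36 reads. Control libraries 4 and 5 had the highest mean methylation, 54.0% and 54.3%, against 53.2% to 53.8% in the other libraries, and control library 4 was the shallowest. The difference over each whole body is given below with and without these libraries, for some genes in the last section. Whether each library is a different animal is not in the labels, and the p-values reflect only how these libraries vary, which could be technical variation. Testis is a mixture of cells, and a different share of cell types cannot be told apart from a different methylation level within a cell type.

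The 250 bases before a start show which letters of a receptor promoter the libraries read. RefSeq's promoter table, on GRCm38.p6 (the assembly behind mm10), held 8 of the 10 genes; Nr3c1 and Thra had no entry in it. The 4 windows with at least 3 covered CpGs before the start are printed 5′ to 3′ in lower case, with the CG of each covered CpG in capitals.
Rarb chr14:16575477-16575726 (minus strand): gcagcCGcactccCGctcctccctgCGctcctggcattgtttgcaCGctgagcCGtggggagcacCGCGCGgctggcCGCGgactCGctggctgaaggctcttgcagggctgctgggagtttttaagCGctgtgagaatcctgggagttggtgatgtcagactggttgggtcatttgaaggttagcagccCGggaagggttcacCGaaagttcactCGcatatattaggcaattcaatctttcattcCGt
Esr2 chr12:76177260-76177509 (minus strand): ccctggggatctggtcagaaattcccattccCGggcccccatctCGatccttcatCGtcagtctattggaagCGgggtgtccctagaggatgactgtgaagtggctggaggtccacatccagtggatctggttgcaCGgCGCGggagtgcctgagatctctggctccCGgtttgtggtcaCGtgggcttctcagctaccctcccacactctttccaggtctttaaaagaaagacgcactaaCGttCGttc
Nr3c2 chr8:76902080-76902329 (plus strand): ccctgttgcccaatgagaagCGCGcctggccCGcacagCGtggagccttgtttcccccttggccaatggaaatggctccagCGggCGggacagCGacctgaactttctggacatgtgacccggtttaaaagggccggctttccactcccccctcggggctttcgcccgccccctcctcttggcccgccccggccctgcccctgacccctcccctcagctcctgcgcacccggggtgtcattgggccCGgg
Esr1, the second of its 2 starts chr10:4709908-4710157 (plus strand): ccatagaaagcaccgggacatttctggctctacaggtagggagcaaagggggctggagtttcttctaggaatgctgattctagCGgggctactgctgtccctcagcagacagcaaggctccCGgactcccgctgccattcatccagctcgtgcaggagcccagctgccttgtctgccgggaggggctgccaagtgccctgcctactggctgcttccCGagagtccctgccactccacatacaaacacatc
In the Rarb window 16 of 16 CpGs were covered, and they averaged 3.83% ± 3.33 in arsenic libraries and 5.58% ± 3.59 in control libraries (SD over 5 libraries, here and below). The Esr2 window had 11 of 12 CpGs covered, at 2.90% ± 3.03 in arsenic libraries and 0.911% ± 0.888 in control libraries. For Nr3c2 8 of 17 CpGs were covered, at 3.59% ± 5.39 in arsenic libraries and 4.71% ± 4.95 in control libraries. For Esr1 3 of 7 were covered, at 3.43% ± 4.03 in arsenic libraries and 3.48% ± 2.25 in control libraries. All 4 windows were nearly free of methylation in both groups. The Rarb window also holds the retinoic acid response element type for which Rarb is known, a direct repeat of half-sites 5 bases apart, read as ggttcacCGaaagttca at 53 to 37 bases before the start. The half-site AGGTCA was searched on both strands, as were the variant AGTTCA and the forms that begin with G, GGGTCA and also GGTTCA, and 32 of 32851 RefSeq promoter windows of 300 bases (0.0974%) held such a repeat. The CpG between its half-sites, 46 bases before the start, was at 2.81% ± 5.17 in arsenic libraries and 4.14% ± 5.68 in control libraries, with at least 27 reads in each library.

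Methylation in the receptor genes was mostly all or none. Of their 1711 cytosines, 839 (49.0%) averaged under 10% over the 10 libraries, 632 (36.9%) over 80% and 186 (10.9%) between 20% and 80%; over all protein-coding genes these shares were 43.1%, 43.3% and 9.57%. The genes differed widely in how much of their covered sequence was unmethylated. Pgr, the progesterone receptor, had 87 of 88 cytosines under 10% and none over 80%. Nr2f2, which codes for COUP-TFII, a receptor of steroidogenic and stromal cells, had 175 of 210 under 10% and none over 80%. In Rxra, Thra and Esr1 the cytosines over 80% numbered 116 of 191, 35 of 62 and 116 of 216. By number of CpGs, the longest run of covered CpGs under 20% was in Nr2f2, with 125 CpGs over 7317 bp, at 1.93% ± 0.952 in arsenic libraries and 2.55% ± 1.42 in control libraries. The run in Nr3c1, the glucocorticoid receptor gene, held 75 CpGs over 1406 bp, at 2.37% ± 1.99 in arsenic libraries and 2.72% ± 2.27 in control libraries. In Nr3c2, the mineralocorticoid receptor gene, it held 73 CpGs over 3212 bp, at 2.20% ± 0.845 in arsenic libraries and 2.40% ± 1.34 in control libraries. Rara's run spanned more bases but held fewer CpGs, 44 over 9948 bp. Thra had the fewest CpGs in its run, with 8 CpGs over 102 bp, at 1.67% ± 2.01 in arsenic libraries and 0.771% ± 1.17 in control libraries. The runs of Esr2, Nr3c2, Rara, Rarb and Rxra contained a RefSeq start, while the run of Pgr began 300 bp and that of Esr1 2062 bp from the nearest start.

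**Figure D1:**
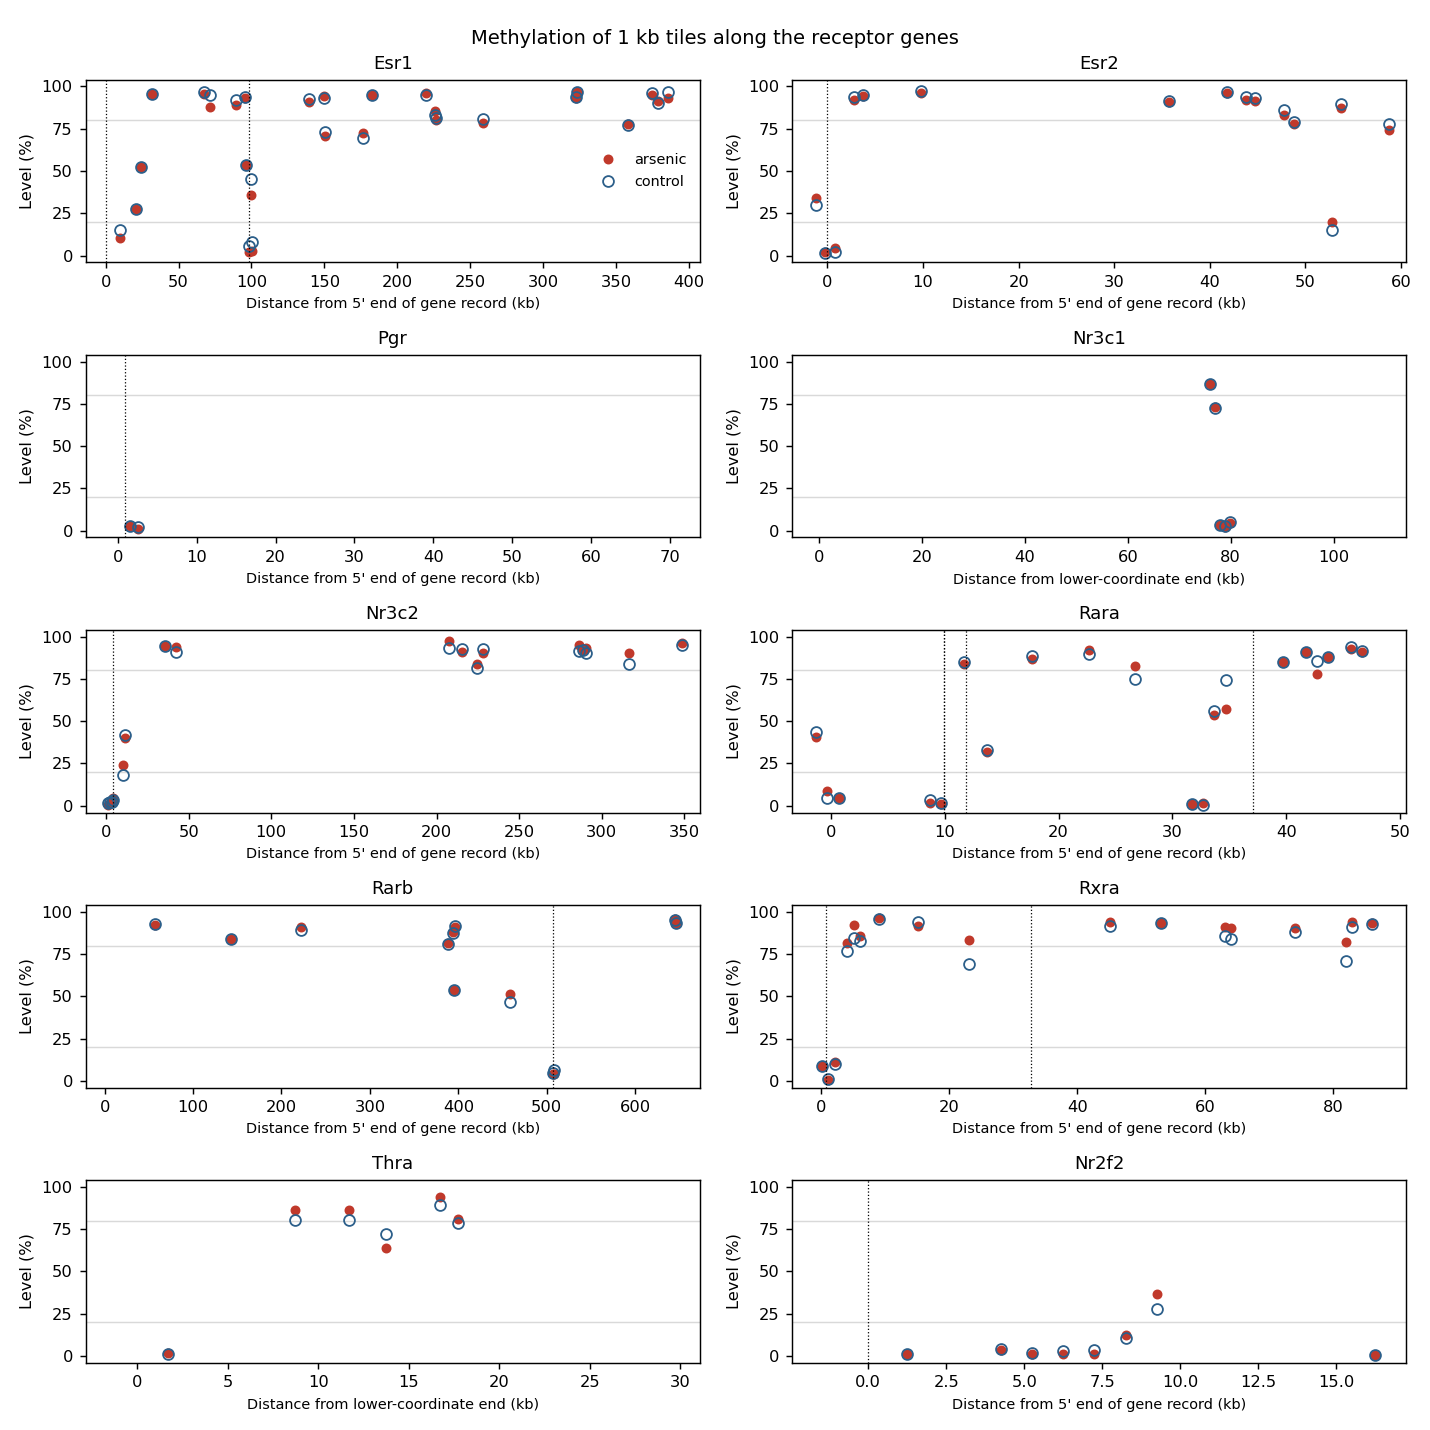
Mean methylation (%) of each 1000 bp tile against its distance (kb) from the 5′ end of the gene record, or from the lower-coordinate end for Nr3c1 and Thra; filled points are means of the 5 arsenic libraries, open points those of the 5 control libraries, dotted lines RefSeq starts and grey lines 20% and 80%. Tiles cluster near 0% and above 80%, with 34 of 129 under 20% and 68 over 80%.

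From 1000 to 5000 bp from a start, the pooled receptor cytosines averaged lower than those of all genes, but the genes did not share this. At 1000 to 2000 bp from the nearest RefSeq start the receptor cytosines averaged 6.92% in arsenic libraries and 7.23% in control libraries, against 32.1% over all genes. At 2000 to 5000 bp the values were 30.4%, 31.2% and 55.7%, and at 5000 to 20000 bp 44.3%, 43.8% and 67.4%. Single genes lay on both sides: at 2000 to 5000 bp Esr2 stood at 92.4% in arsenic libraries and 94.2% in control libraries and Rxra at 87.6% and 82.6%, while Nr3c2 stood at 2.51% and 2.50% and Nr2f2 at 3.07% and 3.82%. At 1000 to 2000 bp Esr1 stood at 43.7% and 50.5%, and Pgr, with 54 of the 164 cytosines there, at 2.35% and 3.01%. Beyond 20000 bp the pooled order turned, with 85.7%, 84.8% and 76.4%. Without Nr2f2 the receptor values at 5000 to 20000 bp were 69.4% in arsenic libraries and 68.8% in control libraries, so the low level at that distance rested on this gene; at 2000 to 5000 bp they were 37.9% and 38.7%, and at 1000 to 2000 bp 7.70% and 8.13%. Within 250 bp of a start the receptor cytosines stood at 12.7% and 13.4%, above the 4.37% of all genes, and 42 of those 158 cytosines lay in Rara at 39.9% and 41.6%. These levels are a description over 8 genes whose cytosines are neighbours, with no test.

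**Figure D2:**
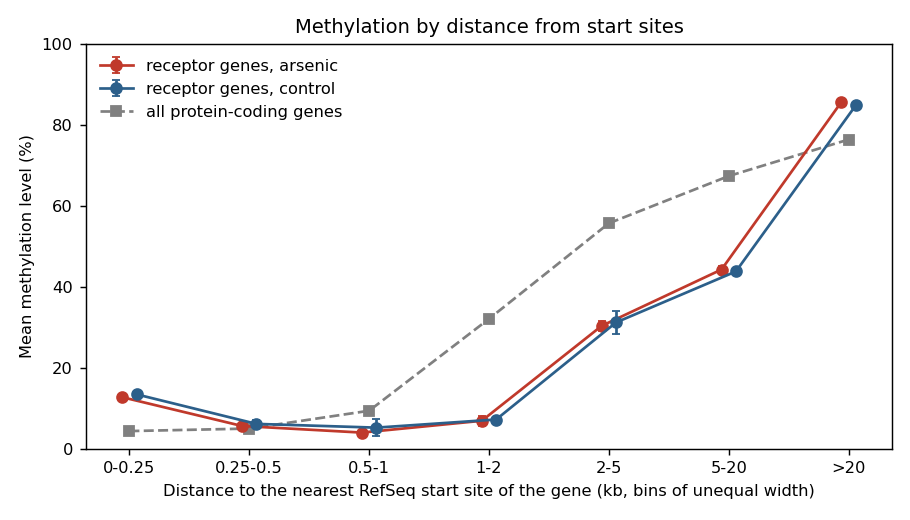
Mean methylation in percent against distance from the nearest RefSeq start, in bins of unequal width, for the receptor genes in arsenic and in control libraries (bars, SD over 5 libraries) and for all protein-coding genes. With Nr2f2 included, the receptor genes lie below all genes from 500 to 20000 bp and above them beyond 20000 bp.

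Gene ends, the 1000 bp on each side of a gene's first or last base, were measured in 4 of the genes. Of the 20 ends 6 had at least 3 CpGs, and the other 14 had no covered CpG. Levels were compared with a quasi-binomial logistic model, with p-values adjusted over all ends of all genes, and calling an end required both an adjusted p below 0.05 and levels 10 percentage points or more apart. None of the 6 was called, where 0% of 17922 ends were, and none had an unadjusted p under 0.05, where 6.36% of all ends did (1.96% higher and 4.39% lower in arsenic libraries). None of the 6 had groups that did not overlap, where 0.921% of all ends had (0.307% higher and 0.614% lower). The difference was above 0 at 5 ends and below 0 at 1, where it was above 0 at 44% and below 0 at 56% of all ends. The 5′ end of Esr2, the oestrogen receptor beta gene (chr12, 76176259 to 76178259, 37 CpGs), was at 2.21% ± 1.39 in arsenic libraries and 1.73% ± 1.02 in control libraries, a difference of +0.493 percentage points (unadjusted p = 0.492, adjusted p = 0.925). The 5′ end of Rxra (chr2, 27675445 to 27677445, 23 CpGs) was at 8.64% ± 1.69 in arsenic libraries and 8.41% ± 3.45 in control libraries (+0.114 percentage points, unadjusted p = 0.945, adjusted p = 0.994). The 5′ end of Rara (chr11, 98926800 to 98928800, 6 CpGs) was at 7.12% ± 3.63 in arsenic libraries and 4.46% ± 3.63 in control libraries (+2.48 percentage points, unadjusted p = 0.336, adjusted p = 0.880); leaving out 1 library gave 1.13 to 3.87 percentage points, the lowest without arsenic library 3 and the highest without control library 2. These 5′ ends were low in both groups, and the groups overlapped. The 3′ ends of Rara and Rxra were methylated. Rara's was at 93.0% ± 0.761 in arsenic libraries and 93.9% ± 1.67 in control libraries (-0.921 percentage points, adjusted p = 0.906), and Rxra's at 93.1% ± 2.25 in arsenic libraries and 91.9% ± 2.30 in control libraries (+1.19 percentage points, adjusted p = 0.931). The 3′ end of Nr2f2 (chr7, 70350946 to 70352946, 7 CpGs) read 0, 0, 0.433, 1.69 and 0% in arsenic libraries 1 to 5 and 0 in every control library. A count of 0 allowed a level of up to 0.867% in control library 3, with 346 reads, and up to 4.29% in control library 4, with 70 reads; such limits cover counting error only. Its difference of +0.340 percentage points had an adjusted p of 0.863. In the flanks, 1000 to 2000 bp beyond an end and not tested, Nr3c2 was at 96.1% in arsenic libraries and 95.3% in control libraries, Esr2 at 48.9% and 48.3%, Rara at 40.9% and 43.6%, and Nr2f2 at 0 and 1.33%. The Nr2f2 flank held 3 cytosines, and its control value came from control library 4 alone, at 6.67%. In the Esr2 flank single arsenic libraries spread from 36.1% to 66.0%.

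Starts inside a gene record were missed by the windows on gene ends, so windows of 1000 bp on each side of every RefSeq start were added. They measured 9 starts in 7 of the genes. The Rara starts at 98937696 and 98937718 held the same CpGs, so the windows gave 8 distinct measurements, of which 7 averaged under 10%; over 13062 starts of all genes the median was 2.76% and 82.2% were under 10%. The exception was one start of Rara, at 98939711, with 83.9% ± 6.65 in arsenic libraries and 85.1% ± 4.95 in control libraries, a start that lies, like the other pair, inside the overlapping gene Gm46294. The second Esr1 start, at 4710158, was at 2.22% ± 1.71 in arsenic libraries and 5.35% ± 4.21 in control libraries, a difference of -3.54 percentage points (unadjusted p = 0.0722, adjusted p = 0.750); single libraries read 1.72, 4.99, 2.36, 1.69 and 0.350% in the arsenic group and 2.84, 4.33, 8.27, 0.407 and 10.9% in the control group. None of them had an unadjusted p under 0.05, where 6.8% of all starts did.

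Bodies, the cytosines inside a gene and over 1000 bp from its ends, were measured in all 10 genes. None was called, where 0% of 14040 bodies were. The unadjusted p was under 0.05 for 3 of the 10, 2 higher and 1 lower in arsenic libraries, where 5.44% of all bodies had such a p (2.01% higher and 3.43% lower). With 10 genes this is a count and not a test. None of the 10 had groups that did not overlap, where 0.791% of all bodies had (0.292% higher and 0.499% lower). Differences were above 0 in 6 genes and below 0 in 4, where 46.1% of all bodies were above and 53.9% below, with a median of +0.151 percentage points, against -0.146 over all bodies.

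**Figure D3:**
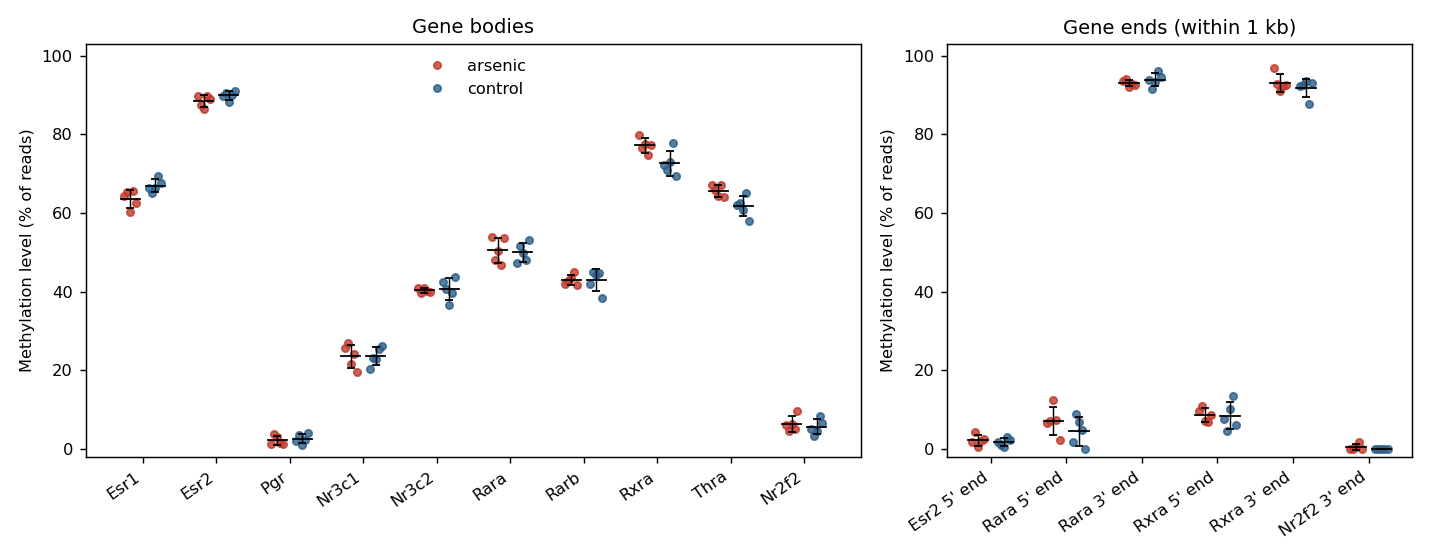
Methylation (% of reads) of the 10 receptor gene bodies and the 6 measured ends, a point per library, arsenic left of control, with the mean and SD of each group. Among bodies Pgr and Nr2f2 stand lowest and Esr2 highest, and the groups overlap in every gene. This order depends on which CpGs were covered and counted as body. Tiles averaging under 20% held all 53 body CpGs of Pgr, 142 of 152 in Nr2f2 and 3 of 61 in Esr2.

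Among the steroid receptor genes, Esr1, which codes for oestrogen receptor alpha, averaged lower in the body in arsenic libraries, without passing the adjusted test. Its body (chr10, gene at 4611989 to 5005633, 166 CpGs) read 64.3, 65.3, 60.2, 65.6 and 62.5% in arsenic libraries 1 to 5 and 66.4, 65.0, 66.4, 69.4 and 67.6% in control libraries 1 to 5. The highest arsenic libraries, 2 and 4, lay above control library 2 and below the other control libraries. The means were 63.6% ± 2.26 in arsenic libraries and 66.9% ± 1.67 in control libraries, a difference of -3.40 percentage points with an unadjusted p of 0.00900 and an adjusted p of 0.848. Without control libraries 4 and 5 the difference was -2.45 percentage points (unadjusted p = 0.0693). Weighting every cytosine equally gave -1.35 percentage points (two-sided exact permutation test, p = 0.222). The Esr1 reads were then split, after the data had been seen, by whether their 1000 bp tile averaged under 20%. In those low tiles (47 CpGs) arsenic libraries read 5.19, 4.36, 5.23, 4.68 and 2.95% and control libraries 6.27, 5.47, 5.68, 16.6 and 12.3%. The groups did not overlap, as in 0.911% of 5159 such bodies (0.252% higher and 0.659% lower), and control libraries 4 and 5 were far above the other 3, which still lay above the highest arsenic library. The difference was -4.58 percentage points (unadjusted p = 0.0160, adjusted p = 0.666); without control libraries 4 and 5 it was -1.29 percentage points (unadjusted p = 0.125, adjusted p = 0.825). In the other tiles (119 CpGs) Esr1 was at 81.3% ± 0.810 in arsenic libraries and 82.5% ± 1.05 in control libraries (-1.11 percentage points, unadjusted p = 0.0770), and the difference was -0.420 percentage points without control libraries 4 and 5. The low tiles held 23.1% ± 3.45 of the Esr1 body reads in arsenic libraries and 21.2% ± 1.06 in control libraries, with 28.6% in arsenic library 3, whose Esr1 body level was the lowest of the 10.

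The other steroid receptor bodies had unadjusted p-values above 0.05. Esr2 (chr12, 76120419 to 76177259, 61 CpGs) was the most methylated of the 10 bodies, at 88.5% ± 1.47 in arsenic libraries and 89.9% ± 1.05 in control libraries (-1.46 percentage points, unadjusted p = 0.0901). The Esr2 start lies at its gene end, outside the body, and only 3 body CpGs lay in low tiles. The Esr2 difference was -1.11 percentage points without control libraries 4 and 5. Nr3c2 (chr8, 76898083 to 77245012, 155 CpGs) was at 40.3% ± 0.614 in arsenic libraries and 40.7% ± 2.74 in control libraries (-0.198 percentage points), with a wider spread in control libraries. Of the Nr3c2 CpGs, 73 lay in low tiles, at 2.20% in arsenic libraries and 2.40% in control libraries. The other 82 stood at 71.8% in arsenic libraries and 72.5% in control libraries. Nr3c1 (chr18, 39410545 to 39519421, 86 CpGs) was at 23.6% ± 2.92 in arsenic libraries and 23.5% ± 2.28 in control libraries (+0.149 percentage points). The Nr3c1 difference was +1.46 percentage points without control libraries 4 and 5 (unadjusted p = 0.378). Of the Nr3c1 CpGs, 75 lay in low tiles, at 2.37% in arsenic libraries and 2.72% in control libraries. The other 11 stood at 82.6% in arsenic libraries and 82.4% in control libraries. Pgr (chr9, 8898900 to 8968611, 53 CpGs) was at 2.13% ± 1.19 in arsenic libraries and 2.59% ± 1.19 in control libraries (-0.309 percentage points), and only 1.53% of all bodies had a lower level. All 53 CpGs lay within 1588 bp that began 300 bp from the nearest RefSeq start. The rest of the Pgr body was not covered, so this level describes that stretch alone.

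Of the retinoid receptor genes, Rxra, the shared partner of retinoic acid, thyroid hormone and other receptors, averaged higher in the body in arsenic libraries, without passing the adjusted test. Its body (chr2, gene at 27676445 to 27763319, 121 CpGs) read 79.7, 76.6, 77.6, 74.7 and 77.3% in arsenic libraries 1 to 5 and 72.2, 70.9, 73.1, 77.7 and 69.4% in control libraries 1 to 5. Control library 4 lay among the arsenic libraries and the other control libraries below all of them. The means were 77.2% ± 1.83 in arsenic libraries and 72.7% ± 3.14 in control libraries, a difference of +4.72 percentage points with an unadjusted p of 0.00380 and an adjusted p of 0.848. It was 5.02 percentage points without control libraries 4 and 5, and 2.84 with equal weight on each cytosine (two-sided exact permutation test, p = 0.0397). The split by tile level, made after the data had been seen, was applied to Rxra as well. Low tiles held 15.3% ± 2.71 of the Rxra body reads in arsenic libraries and 17.7% ± 3.64 in control libraries. Outside them (93 CpGs) Rxra was at 90.7% ± 1.44 in arsenic libraries and 87.6% ± 2.13 in control libraries (+3.23 percentage points, unadjusted p = 0.00347, adjusted p = 0.815), a difference that was 4.39 percentage points without control libraries 4 and 5. The body of Rara (chr11, 98927800 to 98974942, 155 CpGs), the retinoic acid receptor alpha gene, was at 50.5% ± 3.16 in arsenic libraries and 50.01% ± 2.49 in control libraries (+0.598 percentage points). That of Rarb (chr14, 16430839 to 17082331, 125 CpGs), retinoic acid receptor beta, was at 42.9% ± 1.29 in arsenic libraries and 42.9% ± 2.82 in control libraries (+0.154 percentage points). Both differences were smaller than the SD between libraries. By the same split, both body levels mixed low and methylated tiles. In Rara 53 CpGs lay in low tiles, at 1.44% in arsenic libraries and 2.06% in control libraries. The other 102 Rara CpGs stood at 84.1% and 84.0%. In Rarb 59 CpGs lay in low tiles, at 3.92% in arsenic libraries and 4.59% in control libraries. The other 66 Rarb CpGs stood at 76.0% in both groups. With a coverage minimum of 20 reads the Rara difference was 2.35 percentage points (unadjusted p = 0.0545). The Rara difference was 0.982 percentage points without control libraries 4 and 5.

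Thra, the thyroid hormone receptor alpha gene, also averaged higher in the body in arsenic libraries, again without passing. Its body (chr11, gene at 98740776 to 98769006, 40 CpGs) read 67.3, 65.8, 64.2, 67.0 and 64.0% in arsenic libraries 1 to 5 and 62.2, 62.6, 60.9, 65.0 and 58.0% in control libraries 1 to 5. Control library 4 lay inside the range of the arsenic libraries and the other control libraries below it. The means were 65.7% ± 1.52 in arsenic libraries and 61.7% ± 2.56 in control libraries, a difference of +4.11 percentage points (unadjusted p = 0.0128, adjusted p = 0.8501). Equal weight on each cytosine gave 3.81 percentage points (two-sided exact permutation test, p = 0.0317), leaving out control libraries 4 and 5 gave 3.86, and a coverage minimum of 20 reads gave 3.33 (unadjusted p = 0.0740). Thra reads were also split by tile level, after the data had been seen. Outside the low tiles (32 CpGs) the levels were 88.4, 86.4, 87.8, 89.5 and 86.8% in arsenic libraries and 83.1, 79.2, 84.1, 83.6 and 83.0% in control libraries. The groups did not overlap there, as in 0.74% of 13104 such bodies (0.336% higher and 0.404% lower), and 5.49% of them had an unadjusted p under 0.05. The difference of +5.10 percentage points had an unadjusted p of 0.000431 and an adjusted p of 0.661, and the difference was 5.41 percentage points without control libraries 4 and 5. Both ends of Thra lacked covered CpGs, and its higher-coordinate end overlaps Nr1d1, which codes for the clock repressor REV-ERB alpha.

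The body of Nr2f2 (chr7, 70351946 to 70366746, 152 CpGs) was at 6.31% ± 1.93 in arsenic libraries and 5.58% ± 1.90 in control libraries (+0.885 percentage points). Without arsenic library 5 the difference was 0.0326 percentage points, and without control libraries 4 and 5 it was 1.94. Its single partly methylated tile (chr7, 70357001 to 70358000, 10 CpGs), chosen after its values were seen, read 40.4, 30.3, 39.5, 21.3 and 52.6% in arsenic libraries 1 to 5 and 33.3, 26.2, 24.0, 28.1 and 27.1% in control libraries 1 to 5. Arsenic libraries spread on both sides of the control range (unadjusted p = 0.0776). The lncRNA gene B130024G19Rik overlaps the 5′ end of Nr2f2, where no CpG was covered.

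**Figure D4:**
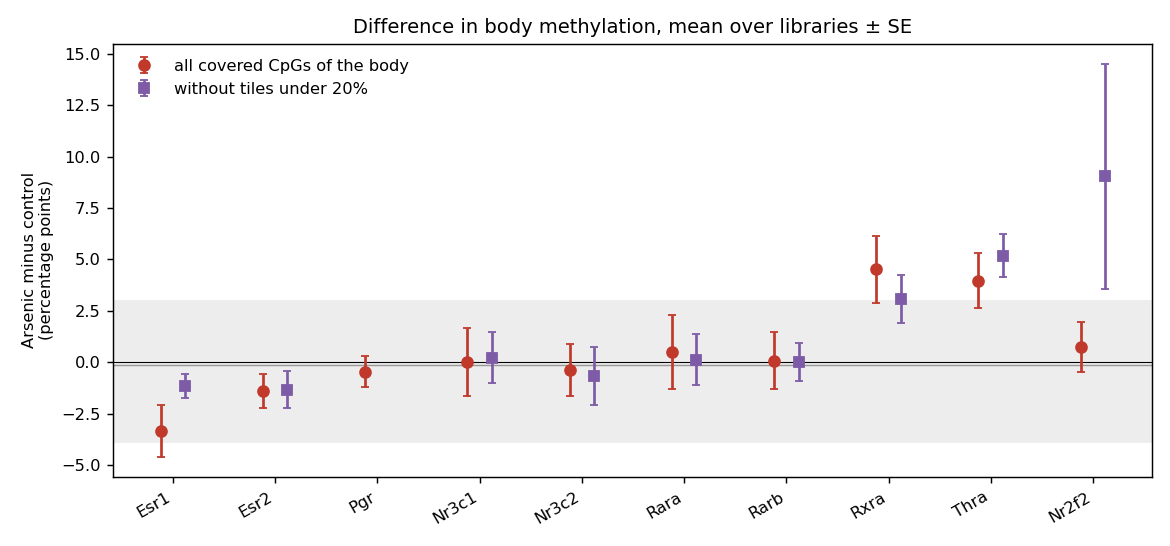
Difference of the group means in body methylation, arsenic minus control in percentage points with its standard error, for all covered CpGs (circles) and without tiles under 20% (squares). The grey band is the 5th to 95th percentile of the same difference over all bodies with all covered CpGs, -3.89 to 2.99. The circles of Rxra and Thra lie above it. The squares of Rxra, Thra and Nr2f2 also do, but the band was not computed for bodies without low tiles. The Nr2f2 square is a single tile of 10 CpGs.

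In tiles of 1000 bp with at least 3 CpGs, none of the 129 tiles that held a receptor gene cytosine was called, where 0% of 165978 tiles were. The unadjusted p was under 0.05 in 10 of them, 4 higher and 6 lower in arsenic libraries, where 5.8% of all tiles had such a p (2.47% higher and 3.34% lower). Differences were above 0 in 59 tiles and below 0 in 70, where 48.1% of all tiles were above and 51.9% below. Esr1 held 5 of the 10, all lower. The 3 with the smallest p among the higher tiles were in Rxra, Rara and Nr3c2. The Rxra tile at 27699001 was at 83.0% ± 6.06 in arsenic libraries and 69.1% ± 9.86 in control libraries (3 CpGs, unadjusted p = 0.00972, adjusted p = 0.809). The Rara tile at 98954001 was at 82.9% ± 4.70 in arsenic libraries and 75.04% ± 7.16 in control libraries (8 CpGs, unadjusted p = 0.0298, adjusted p = 0.849). The Nr3c2 tile at 77105001 was at 97.6% ± 1.75 in arsenic libraries and 93.0% ± 4.57 in control libraries (4 CpGs, unadjusted p = 0.0472, adjusted p = 0.861). Each of these had groups that overlapped. The 3 among the lower tiles were in Nr2f2 and Esr1. The Nr2f2 tile at 70359001 was at 1.08% ± 0.773 in arsenic libraries and 3.39% ± 1.67 in control libraries (17 CpGs, unadjusted p = 0.00444, adjusted p = 0.808). The Esr1 tile at 4711001 was at 35.6% ± 3.71 in arsenic libraries and 45.5% ± 7.44 in control libraries (4 CpGs, unadjusted p = 0.00888, adjusted p = 0.808). The Esr1 tile at 4621001 was at 10.2% ± 2.08 in arsenic libraries and 15.2% ± 3.39 in control libraries (7 CpGs, unadjusted p = 0.00952, adjusted p = 0.808). In 1 tile the groups did not overlap, against 0.832% of all tiles (0.349% higher and 0.483% lower): an Esr1 tile at 4997001, named after its values were seen, read 94.5, 92.6, 93.5, 93.5 and 91.1% in arsenic libraries and 95.5, 96.6, 94.7, 97.6 and 98.7% in control libraries.

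**Figure D5:**
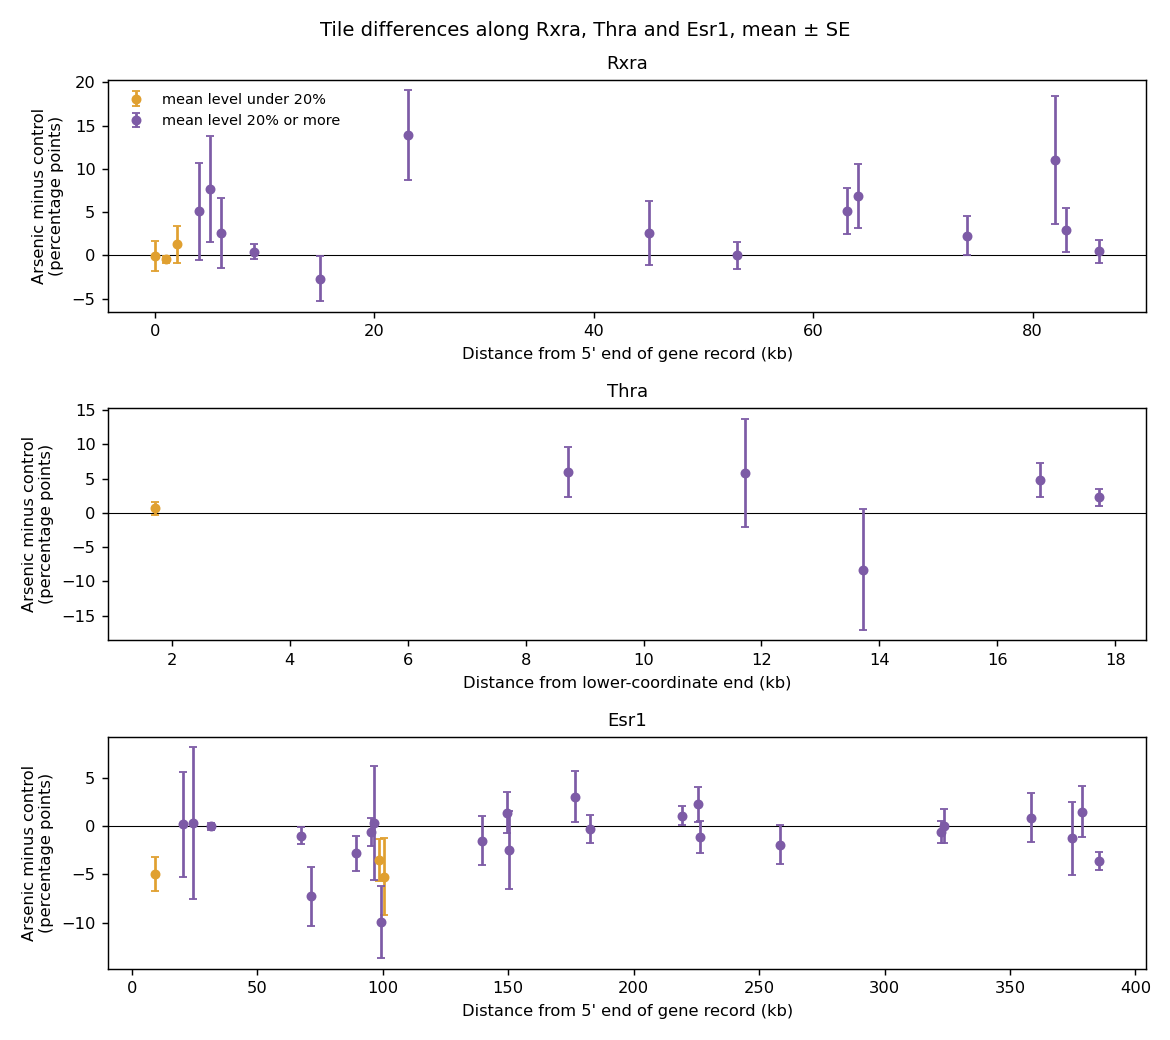
Difference of the group means per 1000 bp tile, arsenic minus control in percentage points with its standard error, along Rxra, Thra and Esr1, by distance in kb from the gene end named on each axis; orange tiles average under 20%. By the read-weighted difference, 13 of 17 Rxra tiles and 5 of 6 Thra tiles lie above 0, and 18 of 27 Esr1 tiles below it.

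Of the 1711 single cytosines none was called, where 0% of 1988759 were. The unadjusted p was under 0.05 at 176 (10.3%), 83 higher and 93 lower, where 7.75% of all cytosines had such a p (3.38% higher and 4.36% lower). Neighbouring cytosines share reads, so this count is a description. By gene, 10 of 62 Thra cytosines were higher with such a p and 1 was lower; for Rxra these were 13 and 5 of 191, for Esr1 8 and 25 of 216, and for Nr3c1 10 and 13 of 114. The difference was above 0 at 780 cytosines and below 0 at 832, where 45.7% of all cytosines were above and 49.5% below. The groups did not overlap at 12 cytosines, 5 higher and 7 lower, where 0.528% of all did (0.228% higher and 0.3% lower). The cytosine of Nr2f2 with the smallest p, at 70358151, read 0 in every arsenic library and 8.70, 8.33, 6.25, 3.03 and 14.8% in control libraries 1 to 5 (unadjusted p = 0.000695, adjusted p = 0.638). With 48 to 67 reads a count of 0 there allowed up to 4.48% to 6.25%. The Rara cytosine at 98945128 read 85.4, 78.7, 80, 92.7 and 81.5% in arsenic libraries 1 to 5 and 94.4, 95, 100, 100 and 100% in control libraries 1 to 5 (unadjusted p = 0.00119, adjusted p = 0.638). Of the higher ones, the Rarb cytosine at 16623713 read 16.7, 25, 18.8, 50 and 38.5% in arsenic libraries 1 to 5 and 4.65, 6.67, 6.67, 6.90 and 12.5% in control libraries 1 to 5 (unadjusted p = 0.00179, adjusted p = 0.638). The Rarb cytosine at 16688056 read 100, 96.7, 100, 100 and 95.8% in arsenic libraries 1 to 5 and 87.5, 81.8, 85.7, 87.5 and 95.9% in control libraries 1 to 5 (unadjusted p = 0.00167, adjusted p = 0.638). The groups did not overlap at the first 3 and overlapped at the last.

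Genes of the same family, or that work with these receptors, were read from 3 lists. Of 38 other nuclear receptor genes, 34 had a measured end, and none of their 42 ends passed; 3 ends were higher with an unadjusted p under 0.05 and none lower, where 1.96% of all ends were higher and 4.39% lower with such a p. The median difference of these ends was -0.0751 percentage points, against -0.216 over all ends. The 5′ end of Nr2f6, an orphan relative of Nr2f2, was at 4.39% ± 2.94 in arsenic libraries and 0.577% ± 0.365 in control libraries (unadjusted p = 0.00230, adjusted p = 0.620). The 5′ end of Pparg, the fat-cell receptor, was at 3.05% ± 1.92 in arsenic libraries and 0.984% ± 0.245 in control libraries (unadjusted p = 0.0127, adjusted p = 0.721), and that of Esrrg, an oestrogen-related receptor, at 2.64% ± 0.965 in arsenic libraries and 1.45% ± 0.439 in control libraries (unadjusted p = 0.0288, adjusted p = 0.761). The groups did not overlap at Nr2f6 and Pparg, both higher in arsenic libraries, where 0.307% of all ends were higher without overlap. Of 35 bodies in this list none passed, 1 being higher and 1 lower with an unadjusted p under 0.05, where 2.01% of all bodies were higher and 3.43% lower; their median difference was -0.350 percentage points, against -0.146 over all bodies. Of 31 genes of ligand metabolism and transport, none of 25 ends or 26 bodies passed, with 1 end higher and 1 body lower with such a p. Their median differences were +0.115 percentage points at ends and -0.894 in bodies, with 17 of 26 bodies below 0, where 53.9% of all bodies were. The 5′ end of Srd5a2, which makes dihydrotestosterone, was at 3.52% ± 3.48 in arsenic libraries and 0.308% ± 0.324 in control libraries (unadjusted p = 0.0110, adjusted p = 0.721). The body of Aldh1a3, a retinoic acid synthase, was at 84.3% ± 1.73 in arsenic libraries and 87.3% ± 2.74 in control libraries (unadjusted p = 0.0493, adjusted p = 0.915), and the 5′ end of Cyp26a1, which breaks retinoic acid down, at 2.43% ± 1.45 in arsenic libraries and 1.09% ± 0.444 in control libraries (unadjusted p = 0.0568, adjusted p = 0.785). Of 23 co-regulator and chaperone genes none of 24 ends or 20 bodies passed. At their ends 1 was higher and 2 were lower with such a p, and in their bodies 1 was higher and 2 were lower. Their median differences were -1.09 percentage points at ends, with 18 of 24 below 0, where 56% of all ends were, and -0.506 in bodies. The higher-coordinate end of Hsp90aa1, a chaperone of steroid receptors, was at 2.42% ± 1.39 in arsenic libraries and 7.41% ± 3.51 in control libraries (unadjusted p = 0.00455, adjusted p = 0.679), and that of the coactivator gene Ncoa2 at 3.55% ± 1.77 in arsenic libraries and 1.20% ± 0.5996 in control libraries (unadjusted p = 0.00988, adjusted p = 0.721). The body of Tsc22d3, a glucocorticoid target, was at 4.64% ± 0.718 in arsenic libraries and 2.90% ± 0.826 in control libraries (unadjusted p = 0.0154, adjusted p = 0.8502).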

How the data were processed

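Reduced representation bisulfite libraries of F2 mouse testis were analysed, 5 arsenic and 5 control, grouped and numbered by their titles. Per the file headers, the deposited table holds counts per cytosine and library (all reads, reads methylated, reads unmethylated), not normalised. The submitters' processing notes name methylKit 1.22.0, Bismark 0.22.3 and Trim Galore 0.6.5, with build mm10; the settings used are not given in the sources. The coverage minimum of 10 reads removed no cytosine.

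Reads were summed over gene ends (1000 bp on each side), bodies and 1000 bp tiles with at least 3 CpGs, or kept per cytosine; 2 tiles that overlapped a receptor gene's 2000 bp flank without holding one of its cytosines were left out of its tiles. Methylated out of all reads was fitted for all features of a kind with a quasi-binomial logistic model; the dispersion was squeezed as in limma 3.58.1 (R 4.3.3) and kept at 1 or above, and F-test p-values were Benjamini-Hochberg adjusted. Levels with an SD are means over libraries; differences, arsenic minus control, are read-weighted. Python 3.11.15, numpy 2.4.6, scipy 1.17.1 and pandas 2.3.3 were used, and the code was tested on simulated data. Genes came from RefSeq on GRCm38.p6, without exons; ends of genes with no strand there are named by coordinate. Members and lists were chosen with earlier results of these data known. Named were all members, the 3 tiles and 2 cytosines with the smallest p in each direction, and 3 genes per list; others are said to be chosen after their values were seen. Alternatives were coverage, window size, equal weights, limma, a binomial test, a replicate block and left-out libraries; windows on RefSeq starts and the split by tile level, also without control libraries 4 and 5, were added after seeing the data. Overlapping genes share cytosines, and intervals cover counting error only.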

Additional observations from a re-analysis of the deposited data

Results flagged for a closer look

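The receptor gene ends and bodies gave 32 groups of 5 libraries, which were checked for 1 library far from the others. The control group at the 3′ end of Nr2f2 read 0 throughout and could not be checked. For normally distributed values chance flags about 1 in 20 groups. Levels near 0, as at the 3′ end of Nr2f2, need not follow that rate. At the 3′ end of Nr2f2, arsenic library 4 stood at 1.69%, with the other arsenic libraries between 0 and 0.433%. At the 3′ end of Rxra, arsenic library 1 stood at 97.0%, with the other arsenic libraries between 91.1% and 92.7%. At the same end control library 4 stood at 87.8%, with the other control libraries between 92.3% and 93.5%.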

How the results depend on the processing

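Among all ends, bodies, tiles and cytosines the number called was 0, and it stayed 0 when any library, or control libraries 4 and 5, was left out. In 3 of these settings 1 feature passed the adjusted p and was kept out by the 10-point minimum alone: a body without control library 5 (lowest adjusted p = 0.0193), a body without control libraries 4 and 5 (0.00184) and a tile without control library 2 (0.0197). limma on log2 ratios called 1 end and 1 tile; a binomial test on reads, which ignores the spread between libraries, called 105 ends, 44 bodies, 1986 tiles and 82352 cytosines. With a replicate block the count was 0 in all 4 kinds, with 1637 ends, 842 bodies, 11136 tiles and 154381 cytosines at an unadjusted p under 0.05. By their deviations from the group mean over tiles, same-numbered libraries correlated by -0.0126 to 0.0167 and differently numbered ones by -0.0193 to 0.0168. These ranges are alike, and the labels do not say whether equal numbers mark pairs. Differences that changed sign are in percentage points. Without control libraries 4 and 5 they were 0.0437 (Rara 3′ end), -0.665 (Rarb body), 0.470 (Nr3c2 body) and 0.0575 (Pgr body). With ends of 500 bp they were -0.483 (Rxra 5′ end) and -0.421 (Rara body). With equal weights they were -0.866 (Rxra 5′ end), -0.585 (Rara body), -0.356 (Rarb body), -0.460 (Nr3c1 body) and 0.565 (Nr3c2 body), and with 20 reads 0.462 (Pgr body); with 20 reads the Rara body kept its sign at 2.35. The cause was not tested. Leaving out 1 library gave -0.881 to 1.08 (Rxra 5′ end), -0.0619 to 0.938 (Esr2 5′ end), -0.220 to 1.43 (Rara body), -0.723 to 1.026 (Nr3c1 body), -0.920 to 0.620 (Rarb body), -1.40 to 0.482 (Nr3c2 body) and -0.752 to 0.00690 (Pgr body), each with a change of sign. The other ends and bodies kept their sign, at 1.13 to 3.87 (Rara 5′ end), -1.51 to -0.385 (Rara 3′ end), 0.179 to 1.65 (Rxra 3′ end), 0.155 to 0.476 (Nr2f2 3′ end), 0.0326 to 1.44 (Nr2f2 body) and -1.89 to -0.936 (Esr2 body). The 3 bodies with an unadjusted p under 0.05 kept their sign, at -3.93 to -2.47 (Esr1), 3.24 to 4.75 (Thra) and 3.94 to 5.68 (Rxra).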
